A study of Mus musculus with 6 samples.

Results

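The 38 Hox genes described here are homeobox transcription factor genes of the 4 mouse Hox clusters, 10 of cluster A, 10 of cluster B, 9 of cluster C and 9 of cluster D. They were taken by symbol, as every array probe whose transcript accession maps to one of the 38 symbols. This gave 41 probes out of 39429 on the array. Of these probes 40 were bright enough to be kept, and they gave 37 genes to test out of 24357 genes in all. Of these 24357, 16981 had a gene name. The other 7376 were targets without one, each counted as a gene, and shares of all genes include them. Hoxb1, a gene of the hindbrain, was not well above background on any of the 6 arrays and is the member without a test.

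Hox genes lie in order along their chromosomes, and genes with low paralog numbers are expressed in the hindbrain and neck while genes with high numbers are expressed in the lumbar, sacral and tail levels. Paralogs in different clusters share a number and much of their function. Genes with high numbers in clusters A and D are used a second time in the limb buds, where they pattern the arm, wrist and digits, and in the genital tubercle.

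RNA came from whole mouse embryos aged 12 days, with or without STAT3-K177K180R, an allele of the transcription factor STAT3 altered at the residues in its name. There were 2 homozygous embryos, 2 heterozygous embryos and 2 wild-type embryos. Each was hybridised to a 1-colour Agilent array. An extraction protocol in the labels speaks of tumor tissue, while titles and the other labels name embryos. The labels say that embryos of the genotypes shared a womb, without naming litters. One label calls the wild type a mutant, and the titles of these embryos also read wild type mutant. They are taken here as wild type. How the allele was made is not given in the sources used here, and no other allele or treatment is named. The p-values measure the spread between 2 embryos a genotype.

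Levels are log2 signals relative to the 75th percentile of the same array, so a level of 0 equals that percentile, and a difference of 1 is a doubling. Probes differ in brightness, so levels of the Hox genes were compared between embryos and never between genes. The scan date in the file headers set both homozygous arrays apart from the other 4 arrays. Arrays that share a scan date are taken here as 1 slide. In any comparison that involves homozygous embryos, the slide and the genotype therefore cannot be told apart. Between 72.0% and 74.6% of gene spots were well above background on the homozygous arrays, between 76.0% and 78.3% on the heterozygous arrays and between 76.4% and 77.1% on the wild-type arrays. In whole embryos, fewer cells of a type and less RNA per cell cannot be told apart. Stat3 had a level of 1.38 and 1.09 in homozygous embryos, 1.07 and 0.82 in heterozygous embryos and 0.81 in both wild-type embryos, and it did not pass the test between homozygous and wild-type embryos (limma, adjusted p = 0.0887). A coding change gives no check of the genotype labels at the level of RNA.

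The first comparison asked how Hox genes differed between homozygous and wild-type embryos. Hox RNA was lower in homozygous embryos at 9 of 37 genes and higher at none. These were Hoxa2, Hoxa10, Hoxa11, Hoxb5, Hoxb8, Hoxc10, Hoxc11, Hoxd3 and Hoxd4. They come from all 4 clusters and from paralog numbers 2 to 11. The threshold was an adjusted p below 0.05 in limma's moderated test over all genes. The 9 genes are 24.3% of the Hox genes tested, beside 14.6% of all genes that were lower. Of all genes 14.3% were higher.

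The homozygous embryos stood lower in more Hox genes than passed the test. In 25 of 37 genes, or 67.6%, both homozygous embryos were below both wild-type embryos, beside 30.0% of all genes. Hoxd12 was the single gene with both homozygous embryos above both wild-type embryos, which is 2.70% of the Hox genes beside 39.6% of all genes. In the other 11 genes the groups overlapped. The median difference over the 37 genes was -0.35, beside 0.08 over all genes tested. The range of the Hox genes ran from -1.94 for Hoxc11 to 0.37 for Hoxc13.

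**Figure D1:**
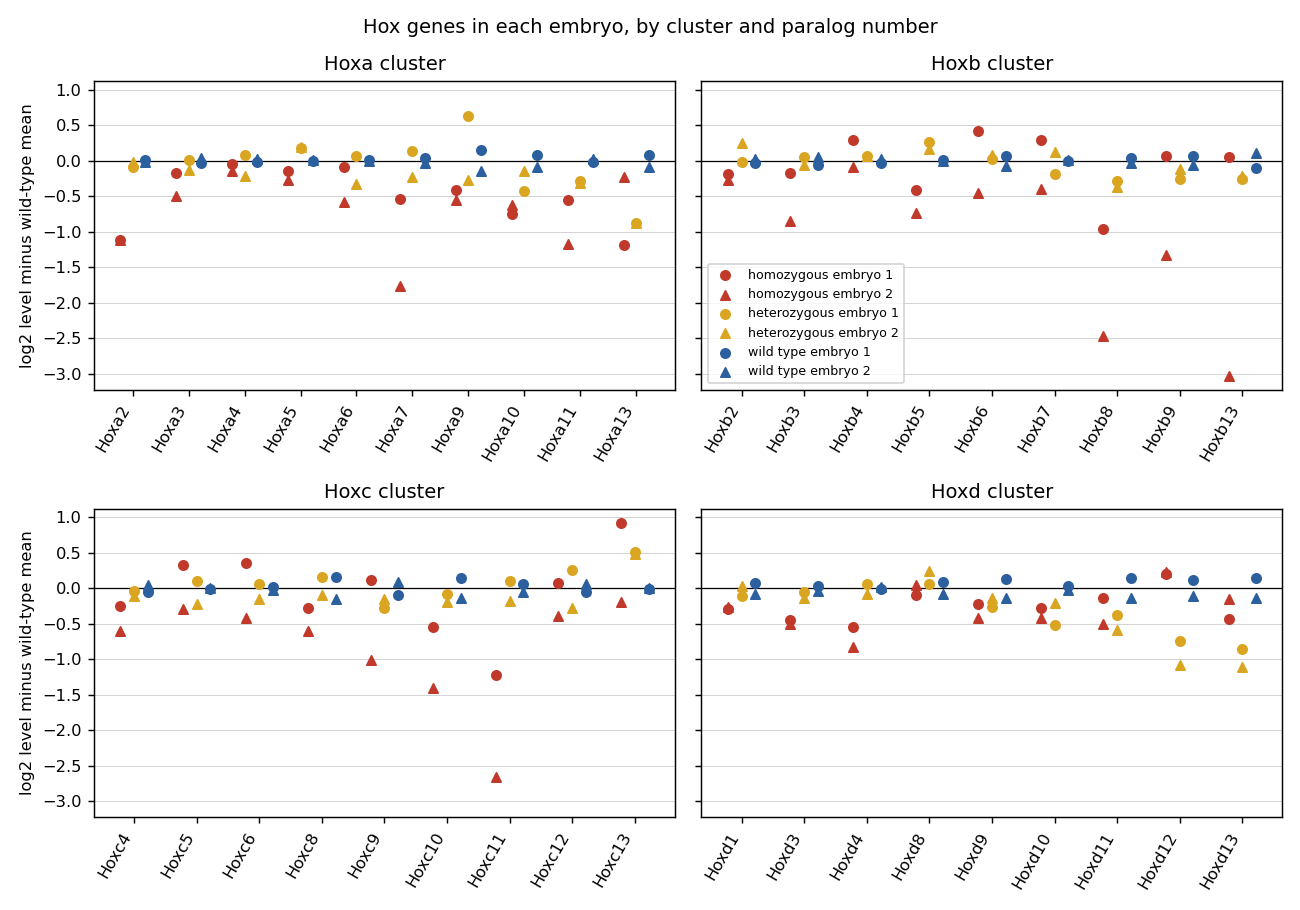
The level of each of the 37 tested Hox genes in every embryo, on a log2 scale with the mean of the wild-type embryos as 0, in 1 panel per cluster and in order of paralog number. Red is homozygous, amber heterozygous and blue wild type, circles are embryo 1 and triangles embryo 2. Hoxa2 has both homozygous embryos at -1.12, Hoxb13 only homozygous embryo 2 at -3.03, and Hoxd13 both heterozygous embryos lowest at -0.85 and -1.11.

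To show the DNA next to genes on which the results below turn, the 250 bases before the start were read from RefSeq promoter windows on GRCm38.p6. The windows of Hoxa2, Hoxb8 and Hoxd4, lower in homozygous embryos, are shown because they hold matches, and that of Hoxd12 because the gene runs the other way. Of the 9 lower genes 6 had a window, and the 4 windows of Hoxa10, Hoxa11 and Hoxd3 held no match to any of the 3 motifs. Capitals mark letters that match, on either strand, a STAT motif (TTCNNNGAA), a Hox-Pbx motif (TGATNNAT) or a Cdx motif (TTTATNG), and no matches overlap in these windows. The windows are chr6:52164832-52165081 on the minus strand for Hoxa2, chr11:96281655-96281904 on the plus strand for Hoxb8, chr2:74721728-74721977 on the plus strand for Hoxd4 and chr2:74674763-74675012 on the plus strand for Hoxd12.
Hoxa2: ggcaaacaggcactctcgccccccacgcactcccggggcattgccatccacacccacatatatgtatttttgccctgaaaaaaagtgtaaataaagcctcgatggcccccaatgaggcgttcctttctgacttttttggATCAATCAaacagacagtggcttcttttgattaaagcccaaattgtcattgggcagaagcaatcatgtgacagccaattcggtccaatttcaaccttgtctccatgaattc
Hoxb8: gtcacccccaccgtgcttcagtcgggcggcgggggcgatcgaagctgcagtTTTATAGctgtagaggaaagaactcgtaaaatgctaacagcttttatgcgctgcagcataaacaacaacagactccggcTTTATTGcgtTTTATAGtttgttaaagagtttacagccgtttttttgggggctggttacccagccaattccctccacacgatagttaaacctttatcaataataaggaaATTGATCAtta
Hoxd4: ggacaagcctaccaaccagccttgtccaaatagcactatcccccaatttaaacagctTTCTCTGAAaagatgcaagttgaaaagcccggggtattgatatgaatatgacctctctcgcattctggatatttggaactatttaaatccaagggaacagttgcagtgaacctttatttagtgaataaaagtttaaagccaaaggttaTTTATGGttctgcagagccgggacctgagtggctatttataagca
Hoxd12: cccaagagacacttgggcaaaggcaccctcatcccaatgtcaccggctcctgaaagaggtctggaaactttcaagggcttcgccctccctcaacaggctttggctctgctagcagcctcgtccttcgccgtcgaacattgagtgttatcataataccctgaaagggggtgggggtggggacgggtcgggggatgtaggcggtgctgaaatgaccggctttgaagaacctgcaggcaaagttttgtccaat
The Hoxa2 window held 1 Hox-Pbx match, the Hoxb8 window 1 Hox-Pbx match and 3 Cdx matches, the Hoxd4 window 1 STAT match and 1 Cdx match, and the Hoxd12 window none. The table had 24 windows for 22 of the 38 Hox genes. The STAT motif was found in 1 of the 24, or 4.17%, beside 7.02% of 32851 windows in all. The Hox-Pbx motif was found in 4, or 16.7%, beside 7.68%, and the Cdx motif in 2, or 8.33%, beside 9.81%. A match describes letters in this window and is not a measured binding site.

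In cluster A all 10 genes had both homozygous embryos below both wild-type embryos, and 3 of the 10 passed the test. Hoxa2, which sets the identity of the second branchial arch and of the anterior hindbrain, had levels of -2.05 and -2.05 in homozygous embryos, -1.02 and -0.95 in heterozygous embryos and -0.91 and -0.94 in wild-type embryos. The homozygous embryos stood well apart from the other 4, which lay close together. Hoxa2 was 2.17-fold lower in homozygous than in wild-type embryos (log2 difference -1.12 ± 0.12 SE, adjusted p = 0.00219). It is the Hox gene with the smallest p in this comparison, and the call held in each of the 15 alternative settings that gave it a value.

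Hoxa10, which acts in the lumbar vertebrae and the uterus, had -2.54 and -2.42 in homozygous embryos, -2.21 and -1.94 in heterozygous embryos and -1.70 and -1.88 in wild-type embryos. Its levels were ordered by genotype with no overlap between the 3 genotypes. The homozygous embryos were 1.61-fold lower than the wild type (-0.69 ± 0.15 SE, adjusted p = 0.0207).

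Hoxa11, which patterns the forearm and the kidney, had -0.06 and -0.68 in homozygous embryos, 0.22 and 0.18 in heterozygous embryos and 0.47 and 0.52 in wild-type embryos. Here too the genotypes did not overlap, and the 2 homozygous embryos lay farther apart than either other pair. The gene was 1.83-fold lower in homozygous embryos (-0.87 ± 0.21 SE, adjusted p = 0.0274). The array holds 10 spots of the Hoxa11 probe, and within an array these spots had an SD of between 0.039 and 0.056.

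Hoxa7, a gene of the thoracic axis singled out after its values were seen, had -0.05 and -1.27 in homozygous embryos, 0.63 and 0.26 in heterozygous embryos and 0.52 and 0.46 in wild-type embryos. Both homozygous embryos were below the other 4, with embryo 2 much the lower. Its difference of -1.15 ± 0.38 SE was as large as that of Hoxa2 but did not pass the test (adjusted p = 0.0638). Hoxa3, Hoxa4, Hoxa5 and Hoxa6 did not pass either and had differences between -0.34 and -0.10.

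In cluster B, Hoxb5 and Hoxb8 passed the test among 9 genes, and 4 of the 9 had both homozygous embryos below both wild-type embryos. Hoxb5, expressed in the posterior hindbrain, the vagal neural crest and the shoulder level, had -0.31 and -0.64 in homozygous embryos, 0.35 and 0.27 in heterozygous embryos and 0.10 and 0.09 in wild-type embryos. Heterozygous embryos were the highest and homozygous embryos the lowest. Hoxb5 was 1.49-fold lower in homozygous than in wild-type embryos (-0.57 ± 0.15 SE, adjusted p = 0.0344).

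Hoxb8, which acts in the spinal cord and in blood progenitors, had -1.73 and -3.23 in homozygous embryos, -1.05 and -1.14 in heterozygous embryos and -0.73 and -0.80 in wild-type embryos. Homozygous embryo 2 was far below every other embryo, and homozygous embryo 1 was also below the other genotypes. The gene was 3.28-fold lower in homozygous embryos (-1.72 ± 0.44 SE, adjusted p = 0.0319). The other 7 genes of the cluster had differences between -1.49 and 0.10, and none passed.

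In cluster C, Hoxc10 and Hoxc11 passed among 9 genes, and 4 of the 9 had both homozygous embryos below both wild-type embryos. Both act at the lumbosacral level, in the hindlimb and in the motor neurons that supply it. Hoxc10 had -2.20 and -3.05 in homozygous embryos, -1.73 and -1.84 in heterozygous embryos and -1.51 and -1.79 in wild-type embryos. Hoxc10 was 1.97-fold lower in homozygous than in wild-type embryos (-0.97 ± 0.28 SE, adjusted p = 0.0443). Of the 9 calls this one lay nearest the threshold, and it was lost in 8 of 15 alternative settings, quantile normalization and the authors' deposited table among them.

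Hoxc11 had -5.34 and -6.77 in homozygous embryos, -4.02 and -4.30 in heterozygous embryos and -4.06 and -4.17 in wild-type embryos. Of the homozygous arrays, only that of embryo 1 had it well above background, while all 4 arrays of the other genotypes did. Its difference of -1.94 ± 0.43 SE was the largest of the Hox genes (adjusted p = 0.0208), and with the normexp background correction it came to -0.27 with an adjusted p of 0.101. The size of the difference therefore depends on how background is treated at this dim probe.

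Hoxc13, known for hair and nail formation, had the largest difference upward, with -3.23 and -4.34 in homozygous embryos, -3.65 and -3.67 in heterozygous embryos and -4.16 and -4.15 in wild-type embryos. The homozygous embryos lay on either side of the wild-type embryos. The difference of 0.37 ± 0.33 SE did not pass (adjusted p = 0.429), and without homozygous embryo 1 it was -0.19.

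In cluster D, Hoxd3 and Hoxd4 passed among 9 genes, and 7 of the 9 had both homozygous embryos below both wild-type embryos. Hoxd3, which shapes the first cervical vertebrae, had -1.15 and -1.19 in homozygous embryos, -0.75 and -0.84 in heterozygous embryos and -0.66 and -0.73 in wild-type embryos. The homozygous pair lay close together below the other 4 embryos. The gene was 1.39-fold lower in homozygous embryos (-0.48 ± 0.12 SE, adjusted p = 0.0318).

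Hoxd4, expressed from the posterior hindbrain backward and active in the cervical vertebrae, had -2.66 and -2.94 in homozygous embryos, -2.04 and -2.18 in heterozygous embryos and -2.12 and -2.09 in wild-type embryos. Heterozygous and wild-type embryos overlapped and the homozygous embryos were lower than both. Hoxd4 was 1.61-fold lower in homozygous embryos (-0.69 ± 0.15 SE, adjusted p = 0.0179).

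**Figure D2:**
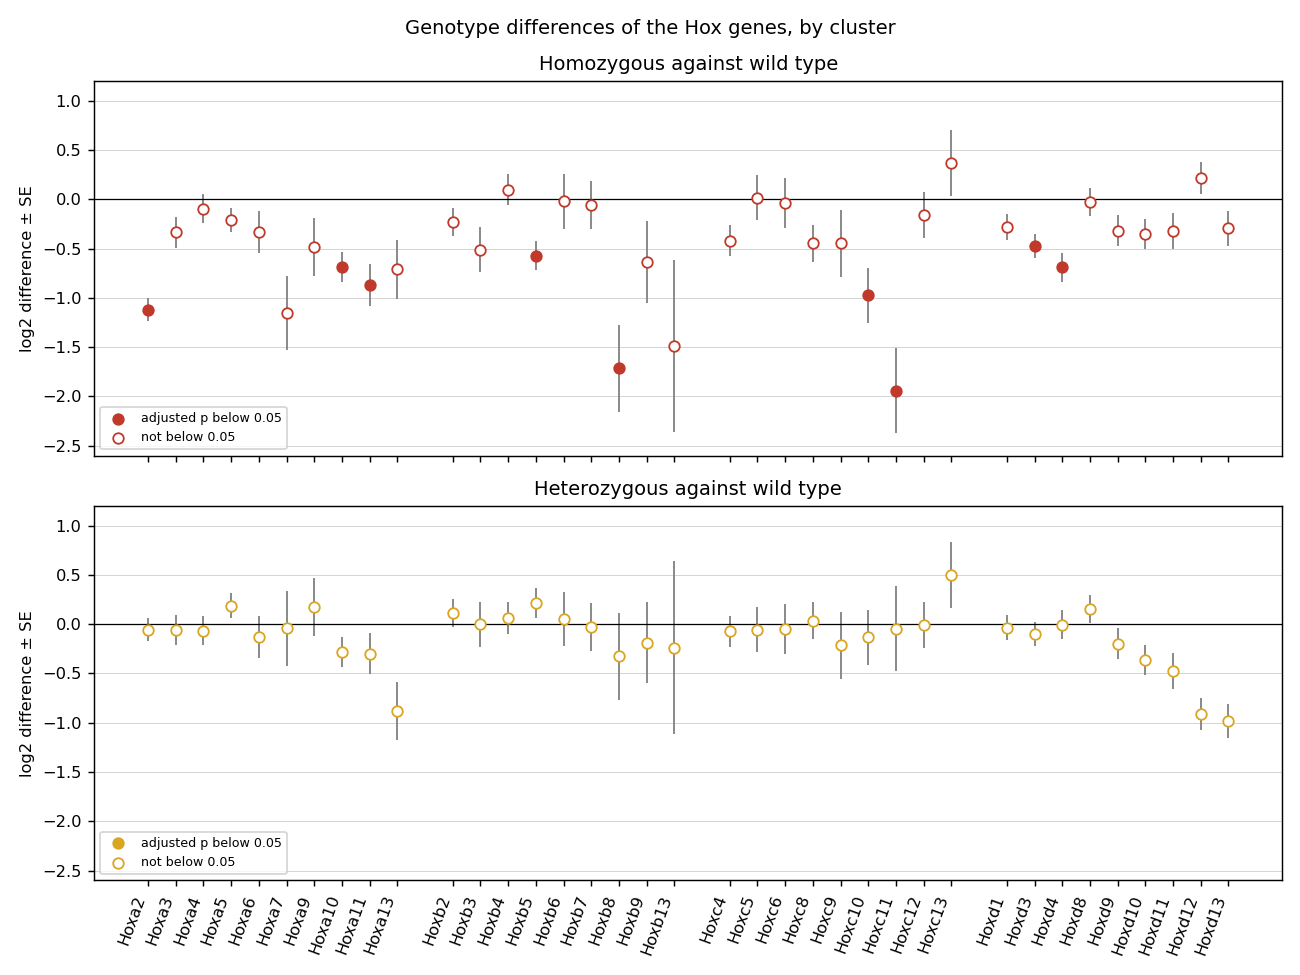
Log2 differences of the 37 tested Hox genes in homozygous against wild-type embryos (upper panel) and in heterozygous against wild-type embryos (lower panel), with bars of 1 SE from the limma fit, ordered by cluster and paralog number. Filled points have an adjusted p below 0.05, which holds for 9 genes in the upper panel and 0 in the lower. In the lower panel Hoxd9 to Hoxd13 lie below 0, between -0.20 and -0.98.

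By position, all 6 tested genes with paralog numbers 1 to 3 had both homozygous embryos below both wild-type embryos, and Hoxa2 and Hoxd3 passed. Among the 15 genes numbered 4 to 8, 9 were separated in this way and 3 passed. Among the 16 genes numbered 9 to 13, 10 were separated and 4 passed. Of all genes 30.0% were separated in this way and 14.6% passed as lower. The median differences were -0.41, -0.21 and -0.47 in this order of position. By cluster the medians were -0.59 in cluster A, -0.51 in cluster B, -0.42 in cluster C and -0.32 in cluster D. These classes were not tested against each other.

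**Figure D3:**
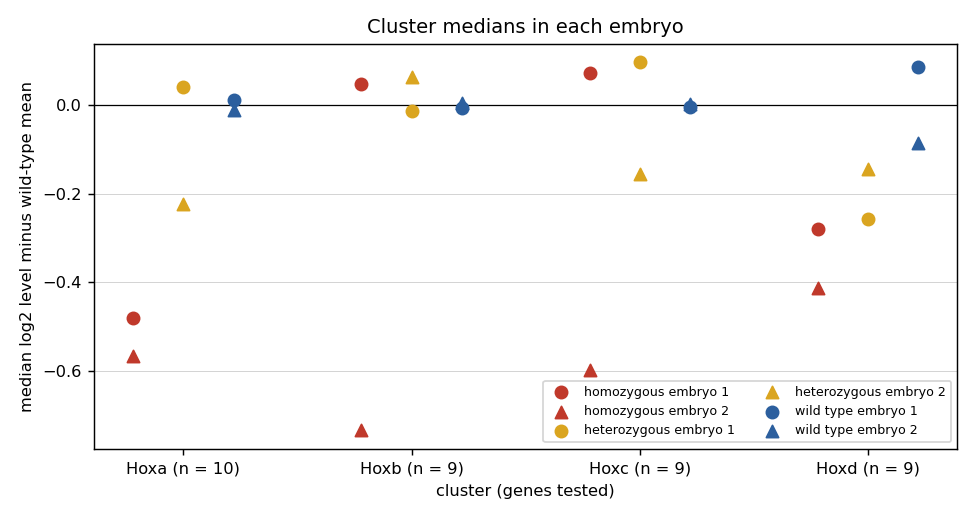
The median over the tested genes of each cluster in every embryo, on a log2 scale with the mean of the wild-type embryos as 0. In clusters A and D both homozygous embryos lie below 0, at -0.48 and -0.57 and at -0.28 and -0.41. In clusters B and C homozygous embryo 1 lies at 0.05 and 0.07 while embryo 2 lies at -0.73 and -0.60.

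The 2 homozygous embryos differed from each other by cluster and position. Their arrays differed too, with 72.0% of gene spots well above background for embryo 2 and 74.6% for embryo 1. The array of embryo 2 also had the lower 75th percentile and the higher negative control signal. The part of this in the differences was not tested. In cluster A the median gene stood at -0.48 in homozygous embryo 1 and -0.57 in embryo 2 relative to the wild-type mean, and in cluster D at -0.28 and -0.41. In cluster B the same medians were 0.05 and -0.73, and in cluster C 0.07 and -0.60. These are medians, and Hoxb2, Hoxb3, Hoxb5, Hoxb8, Hoxc4, Hoxc8, Hoxc10 and Hoxc11 had both homozygous embryos below both wild-type embryos. Of the 37 Hox genes 30, or 81.1%, were lower in homozygous embryo 2 than in homozygous embryo 1, beside 55.6% of all genes, and these include all 9 of cluster B and all 9 of cluster C. Between the heterozygous embryos 22 of 37, or 59.5%, were lower in embryo 2, beside 60.6% of all genes, with 8 of the 9 of cluster C among them. Between the wild-type embryos it was also 22 of 37, beside 52.2% of all genes.

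At least a 2-fold gap between the homozygous embryos was seen in 7 of 37 Hox genes, or 18.9%, each with embryo 2 the lower, beside 2.11% of all genes. None had a gap of this size the other way, which 1.31% of all genes had. The 7 genes were Hoxa7, Hoxb8, Hoxb9, Hoxb13, Hoxc9, Hoxc11 and Hoxc13. All have paralog numbers of 7 or more, and none is in cluster D. No Hox gene differed 2-fold between the heterozygous embryos, where 0.415% of all genes were lower and 0.370% higher in embryo 2, or between the wild-type embryos, where these shares were 0.386% and 0.321%.

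Hoxb13, a gene of the tail bud and tail, had -3.08 and -6.16 in homozygous embryos, -3.39 and -3.35 in heterozygous embryos and -3.24 and -3.02 in wild-type embryos. Homozygous embryo 1 was at the level of the wild type, while the probe was not well above background in homozygous embryo 2. Hoxb9, a gene of the thoracic level, had -1.29 and -2.69 in homozygous embryos, -1.61 and -1.47 in heterozygous embryos and -1.28 and -1.42 in wild-type embryos. Hoxc9, which marks the thoracic spinal cord, had -1.27 and -2.39 in homozygous embryos, -1.66 and -1.54 in heterozygous embryos and -1.48 and -1.30 in wild-type embryos. In each of these 3 genes, singled out after their values were seen, only homozygous embryo 2 stood apart, and none passed the test against the wild type. Without homozygous embryo 2 the differences were 0.05, 0.06 and 0.11, and without homozygous embryo 1 they were -3.03, -1.33 and -1.01.

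**Figure D4:**
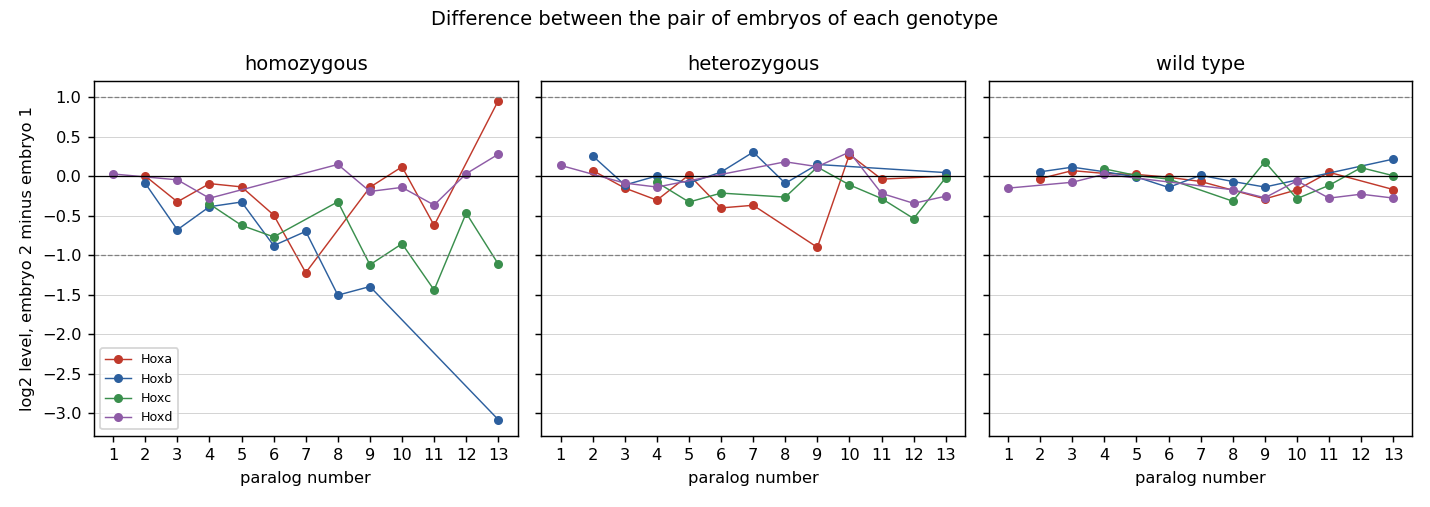
The level in embryo 2 minus the level in embryo 1 of the same genotype, on a log2 scale, against paralog number, for homozygous, heterozygous and wild-type embryos. Lines join the genes of a cluster, and dashed lines mark a 2-fold gap. In the homozygous panel Hoxb8, Hoxb9, Hoxb13, Hoxc9, Hoxc11, Hoxc13 and Hoxa7 lie below the lower dashed line, and in the other panels no gene lies beyond either line.

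Beside Hoxa2 and Hoxc10, the call was lost in 6 of 15 alternative settings for Hoxb5 and Hoxd3, in 5 of 15 for Hoxa11 and Hoxb8, in 2 of 15 for Hoxa10 and Hoxd4 and in 3 of 14 for Hoxc11. The count of 9 rested on all embryos. With a heterozygous or a wild-type embryo left out, the share of Hox genes called lower was no longer above that of all genes. Without homozygous embryo 1 it was 16, and without homozygous embryo 2 it was 7. It was 4 without either heterozygous embryo and 1 without either wild-type embryo, when Hoxa2 alone passed. The median difference was -0.50 without homozygous embryo 1 and -0.18 without homozygous embryo 2, so its sign did not rest on 1 of them.

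The second comparison set heterozygous against wild-type embryos, whose 4 arrays share a slide. No Hox gene passed, and neither did any of the 24355 genes tested (limma). Of these genes 551 had an unadjusted p below 0.05, which is less than a 0.05 share of them. Both heterozygous embryos were below both wild-type embryos in 14 of 37 Hox genes, or 37.8%, beside 12.0% of all genes. They were above in 4 genes, or 10.8%, beside 14.9% of all genes. Cluster D held 6 of the 14, Hoxd3 and the unbroken run from Hoxd9 to Hoxd13. The median difference of the Hox genes was -0.06, beside 0.00 over all genes.

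The 4 Hox genes with an unadjusted p below 0.05 were Hoxa13, Hoxd11, Hoxd12 and Hoxd13, all lower in heterozygous embryos. That is 10.8% of the Hox genes, beside 0.747% of all genes with a lower level at this p, and each had an adjusted p of 1.00. All 4 are genes of the distal limb and genital tubercle. Along cluster D the differences were -0.20 at Hoxd9, -0.36 at Hoxd10, -0.48 at Hoxd11, -0.91 at Hoxd12 and -0.98 at Hoxd13, with SEs between 0.15 and 0.18. The size followed the order of the genes toward the Hoxd13 end of the cluster, an order seen in the values and not tested.

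Hoxd13, which patterns the digits, had 0.00 and 0.28 in homozygous embryos, -0.42 and -0.67 in heterozygous embryos and 0.57 and 0.29 in wild-type embryos. Hoxd12, its neighbour with a like role in the digits, had -0.85 and -0.82 in homozygous embryos, -1.79 and -2.13 in heterozygous embryos and -0.94 and -1.16 in wild-type embryos. In both genes the heterozygous embryos were below all 4 other embryos, and no other Hox gene had this pattern. Hoxd11, which patterns the forearm, had -2.92 and -3.29 in homozygous embryos, -3.15 and -3.37 in heterozygous embryos and -2.64 and -2.92 in wild-type embryos. There the homozygous embryos overlapped the heterozygous embryos. Hoxd10, with Hoxd11 singled out after its values were seen, had -2.83 and -2.97 in homozygous embryos, -3.06 and -2.75 in heterozygous embryos and -2.52 and -2.58 in wild-type embryos.

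Hoxc13 had the largest difference upward in heterozygous embryos, 0.50 ± 0.33 SE. Both heterozygous embryos were above the wild-type mean, by 0.50 and 0.49, and the gap between the heterozygous embryos was 0.02.

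Homozygous against heterozygous embryos gave 4 Hox genes lower and 2 higher. The 4 are 10.8% of the Hox genes, beside 13.2% of all genes, and the 2 are 5.41%, beside 10.6% of all genes. Each comparison shares a genotype with each of the others, so their values stand side by side and are not separate evidence. Hoxa2 differed by -1.06 ± 0.12 SE (adjusted p = 0.00299), Hoxb5 by -0.79 ± 0.15 SE (adjusted p = 0.0156), Hoxc11 by -1.90 ± 0.43 SE (adjusted p = 0.0259) and Hoxd4 by -0.68 ± 0.15 SE (adjusted p = 0.0218). Hoxd12 was 2.18-fold higher in homozygous than in heterozygous embryos (1.13 ± 0.16 SE, adjusted p = 0.00682), and Hoxd13 was 1.61-fold higher (0.69 ± 0.18 SE, adjusted p = 0.0365).

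The Hox difference between homozygous and heterozygous embryos thus ran in both directions within cluster D, with Hoxd4 lower and Hoxd12 and Hoxd13 higher. Both homozygous embryos were below both heterozygous embryos in 19 of 37 genes, or 51.4%, beside 28.2% of all genes. Both were above in 2 genes, or 5.41%, beside 35.8% of all genes. With 1 embryo left out, the 4 lower genes became 16 without homozygous embryo 1, 5 without homozygous embryo 2, 1 without heterozygous embryo 1 and 2 without heterozygous embryo 2 or either wild-type embryo. The calls of Hoxa2 and Hoxd12 held in each of the 15 alternative settings run. The call was lost in 7 of 15 settings for Hoxd13, in 6 of 14 for Hoxc11, which only 1 homozygous array had well above background, in 4 of 15 for Hoxd4 and in 2 of 15 for Hoxb5.

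Hoxa9, Hoxa13 and Hoxb3 had a pair of kept probes each, which were compared within the gene when every kept probe was tested. In this test 11 of 40 Hox probes were lower in homozygous than in wild-type embryos, beside 14.6% of all probes, and none was higher, beside 13.2%. Both probes of each gene had the same sign. Hoxa9, a gene of limb, kidney and blood progenitors, had 2.65 and 2.51 in homozygous embryos, 3.70 and 2.80 in heterozygous embryos and 3.22 and 2.93 in wild-type embryos with its brighter probe. With the dimmer probe it had -3.67 and -4.05 in homozygous embryos, -3.42 and -3.60 in heterozygous embryos and -3.29 and -3.50 in wild-type embryos. The homozygous embryos were below the other 4 with both probes. These probes differed by -0.49 ± 0.29 SE and -0.47 ± 0.18 SE, and neither passed.

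Hoxa13, which acts in the digits, hindgut and genital tubercle, had -5.28 and -4.33 in homozygous embryos, -4.98 and -4.98 in heterozygous embryos and -4.01 and -4.18 in wild-type embryos with its brighter probe. With the dimmer probe it had -5.41 and -4.77 in homozygous embryos, -4.88 and -5.05 in heterozygous embryos and -4.19 and -4.23 in wild-type embryos. Both probes placed homozygous embryo 1 lowest and both wild-type embryos highest. The dimmer probe passed between homozygous and wild-type embryos (-0.89 ± 0.22 SE, adjusted p = 0.0300), while the brighter one did not (-0.71 ± 0.30 SE, adjusted p = 0.120).

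Hoxb3, expressed in the hindbrain and the pharyngeal arches, had 0.56 and -0.12 in homozygous embryos, 0.79 and 0.68 in heterozygous embryos and 0.68 and 0.79 in wild-type embryos with its brighter probe. With the dimmer probe it had -3.23 and -3.24 in homozygous embryos, -1.82 and -2.03 in heterozygous embryos and -1.82 and -2.50 in wild-type embryos. The dimmer probe passed (-1.08 ± 0.23 SE, adjusted p = 0.0196) and the brighter one did not (-0.51 ± 0.23 SE, adjusted p = 0.139). The brighter probe separated the homozygous embryos from each other and the dimmer one did not.

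**Figure D5:**
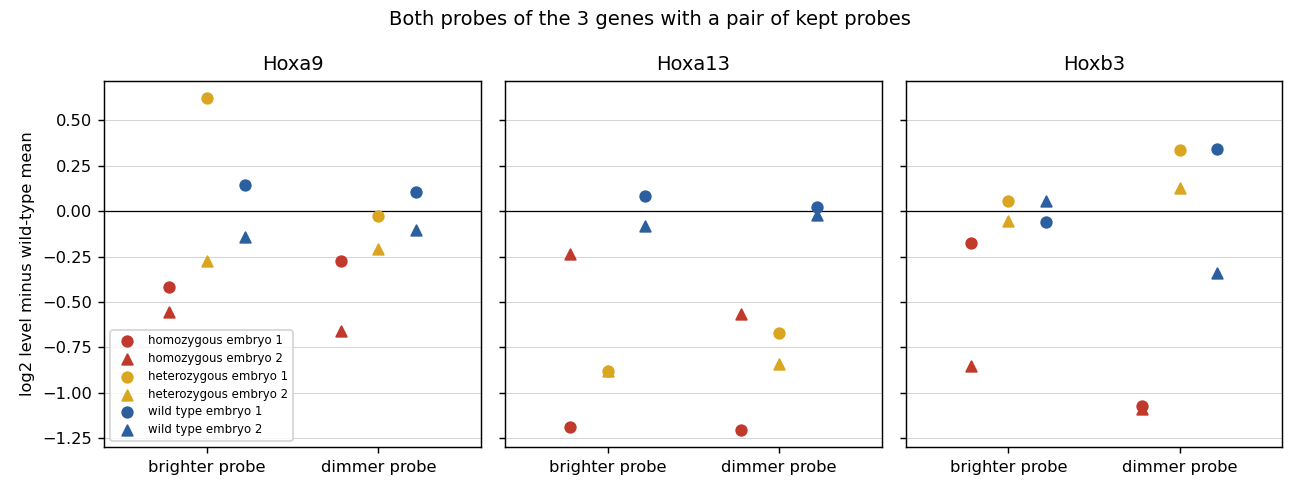
Levels of both kept probes of Hoxa9, Hoxa13 and Hoxb3 in every embryo, on a log2 scale with that probe's wild-type mean as 0. Red is homozygous, amber heterozygous and blue wild type, circles are embryo 1 and triangles embryo 2. Homozygous embryos lie below the wild-type embryos with each of the 6 probes, and the Hoxb3 homozygous pair is spread with the brighter probe and close together with the dimmer one.

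Of the 8 protein-coding genes that flank the 4 clusters, 7 were measured, and Calcoco1, beside Hoxc13, was the one of the 7 that passed between homozygous and wild-type embryos, where 28.9% of all genes passed in either direction. It was higher in homozygous embryos (0.70 ± 0.18 SE, adjusted p = 0.0312). The other 6 were Skap2, Evx1, Ttll6, Skap1, Smug1 and Mtx2, with differences between -0.12 and 0.25 with the brightest probe. The other kept probe of Ttll6, well above background on neither homozygous array, gave -0.90 and did not pass. Evx1 is a homeobox gene beside Hoxa13.

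Of 15 non-coding RNA genes inside the clusters, 2 were measured, Hoxa11os and Hoxd3os1. Hoxa11os, transcribed antisense to Hoxa11 in the distal limb, had 0.01 and -0.24 in homozygous embryos, -0.46 and -0.77 in heterozygous embryos and 0.16 and 0.08 in wild-type embryos. Its heterozygous embryos were the lowest, as with Hoxd12 and Hoxd13, with a difference of -0.73 from the wild type and -0.23 between homozygous and wild-type embryos. Neither passed the test. Hoxd3os1 differed by 0.13 between homozygous and wild-type embryos.

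Proteins that work with Hox proteins or switch Hox clusters on and off were followed as lists, in homozygous against wild-type embryos. Over all lists given here, the regional and marker lists included, 23 of 140 genes (16.4%) were higher and 18 (12.9%) lower, near the 14.3% and 14.6% of all genes, and no list was tested against other genes. Of 9 Hox cofactors, which include homeodomain partners of Hox proteins, 2 were higher and 1 lower. Pbx3 differed by 0.58 (adjusted p = 0.0235) and Pbx4 by -0.85 (adjusted p = 0.00658).

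The Polycomb repressive complexes keep Hox genes silent outside their domains. Of 11 PRC2 genes 4 were higher and none lower, namely Phf19 by 0.54, Eed by 0.61, Aebp2 by 0.45 and Ezh2, the methyltransferase, by 0.44. The other kept probe of Aebp2 gave 0.11. Of 19 PRC1 genes 4 were higher and 1 lower, among them Phc1 at 0.56, Phc2 at 0.72 and Cbx7 at -1.74. Only 1 homozygous array had Cbx7 well above background. Of 12 Trithorax and H3K27 demethylase genes 3 were higher, among them the demethylase Kdm6b by 1.05 and Wdr5 by 0.90. In this list 2 genes were lower, one of them Kmt2d at -1.46, whose other kept probe gave -0.22.

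Signals that set Hox expression along the axis were followed next. Of 12 measured axial elongation genes 3 were higher and 3 lower. T, the Brachyury gene of the tail bud and notochord, had -5.90 and -5.99 in homozygous embryos, -4.16 and -4.54 in heterozygous embryos and -4.43 and -4.23 in wild-type embryos (-1.61 ± 0.17 SE, adjusted p = 0.00215). Only 1 homozygous array had T well above background. Lin28a was higher by 0.98. Fgf8 was higher by 1.53 with its brightest probe and fell by 0.53 with another, and Nkx1-2 gave -0.76 and 0.84, so the direction of these genes was not settled. Of 18 retinoic acid pathway genes, Dhrs3 (-0.68) and Crabp1 (-0.62) were lower and none was higher.

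Regional lists that overlap Hox domains are given for comparison. Of 6 hindbrain genes Irx3 fell by 0.92 and Egr2, the Krox20 gene that marks alternate hindbrain segments, rose by 0.44. Of 15 limb bud genes Msx2 was higher by 0.82 and Prrx1 fell by 1.72 with its brightest probe, while its second probe gave -0.06. Of 9 spinal motor neuron genes 3 were lower and none higher. Chat fell by 4.58, Foxp1 fell by 1.22 and Isl2 fell by 0.66. Other kept probes of Foxp1 gave 0.01 and 0.24. Of 12 forebrain and midbrain genes, where Hox genes are not expressed, Lhx2 was higher (0.79) and Six3 lower (-1.16), and the median was 0.45. None of these genes passed between heterozygous and wild-type embryos.

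The tissue labels were checked against markers. All 12 embryo tissue markers were measured, with 3 higher in homozygous embryos (Afp, Neurog2 and Myog) and none lower, and a median difference of 0.48. Of 9 trophoblast and placenta markers 6 were measured, and the defining markers Tpbpa and Ctsq were not well above background on any array. The summed signal of the 6 measured markers, in units of the array's 75th percentile, was 17.7 and 8.80 in homozygous embryos. It was 58.5 and 41.2 in heterozygous embryos and 50.2 and 57.8 in wild-type embryos. Gcm1, far the brightest of the 6, made up most of this sum in every embryo. Of the 6, 3 were lower in homozygous than in wild-type embryos, 1 was higher and 2 did not pass. Gcm1 fell by 2.21 in homozygous embryos, Synb fell by 1.02, and Prl3d1 was higher by 0.77. The other lower marker was well above background on neither homozygous array. The part of these differences in the Hox results was not tested.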

How the data were processed

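RNA of 6 mouse embryos was measured on 1-colour Agilent arrays of 44397 spots. Per the file headers, the authors deposited intensity values from Feature Extraction 11.0.1.1, background-subtracted within each array and not normalized between arrays. A deposited log2 table of the authors, with the same median (6.72) in every array, was an alternative, and its normalization is not given in the sources used here. The 38 Hox genes, the other lists and the alternatives were chosen with earlier results of these data known.

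Control spots and outlier spots were left out and spots of a probe averaged. Intensities were taken as log2 minus the array's 75th percentile. A probe was kept if both arrays of any genotype had it well above background (29910 probes), and the brightest kept probe stood for a gene. Accessions were named through a RefSeq table of GRCm38.p6, used for names and promoter windows only, as the arrays were annotated to another build. limma 3.58.1 (R 4.3.3) fitted genotype over all 6 arrays together (3 residual degrees of freedom), with Benjamini-Hochberg adjustment over all genes and a threshold of 0.05. The fit was tested on simulated data. The number of arrays limits the precision.

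Genes are named with all values if they passed in any comparison, had the largest difference in either direction, or had 2 kept probes. Stat3, the genes flanking the clusters and up to 4 members of each other list with the smallest p are also named, except some list members that are not reported here. The normexp correction used the median spot signal in place of the planned mean signal. Groups follow the sample titles, with wild type mutant taken as wild type.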

Additional observations from a re-analysis of the deposited data

How the results depend on the processing

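The 14 to 18 alternatives run for each result kept the Hox median below 0 in all 3 comparisons, and no Hox gene passed in heterozygous against wild-type embryos under any of them. In homozygous against wild-type embryos the number of lower Hox genes was 9, but 4 with no filter on dim probes, 2 of the 3 genes that have a second brightest probe, and 1 to 16 when 1 array was left out. The number higher was 0, and 0 to 1 with 1 array left out (Hoxc13, without homozygous embryo 2). The median of -0.35 was -0.11 with normexp and the 75th percentile, -0.89 with the second brightest probe and -0.50 to -0.18 with 1 array left out. In homozygous against heterozygous embryos the number lower was 4, but 8 with normexp and the 75th percentile, 1 with the second brightest probe, and 1 to 16 with 1 array left out. The number higher was 2, but 1 with no filter, 0 with the second brightest probe and 1 to 3 with 1 array left out. The median of -0.28 was -0.11 with normexp and the 75th percentile and -0.44 to -0.17 with 1 array left out. In both comparisons the number lower over all genes also changed when 1 array was left out. The causes were not tested. Normexp and the absence of a filter moved the median of all genes in homozygous against wild-type embryos to 0.19 and 0.17.

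Of the other lists in homozygous against wild-type embryos, 18 genes were lower and 23 higher of 140. With normexp and the 75th percentile these were 11 and 36, with the second brightest probe 3 and 4 of 35, and higher were 9 with no filter. With 1 array left out 6 to 26 were lower and 4 to 23 higher, the smallest counts without a wild-type embryo. With 1 array left out the difference ran from -3.03 to 0.0488 for Hoxb13, -1.33 to 0.0611 for Hoxb9 and -1.01 to 0.11 for Hoxc9, highest without homozygous embryo 2, and from -0.19, without homozygous embryo 1, to 0.92 for Hoxc13. Signs also turned for Fgf8 (-0.53) and Foxp1 (0.00773) with the second brightest probe, and for Nkx1-2 with normexp (0.0501), the mean of probes (0.0421) and the second brightest probe (0.84).

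The replicate numbers were not shown to pair embryos, since deviations correlated at 0.26 between homozygous and heterozygous, -0.16 between homozygous and wild-type and 0.01 between heterozygous and wild-type embryos of the same number. With the number as a replicate block, 11 Hox genes were lower and 0 higher in homozygous against wild-type embryos, and 7 lower and 1 higher in homozygous against heterozygous embryos. Leaving out an array leaves 1 embryo in a genotype, which is then assumed to vary like the others. Slide could be held constant only for heterozygous against wild-type embryos, where no Hox gene passed. Dim probes limit Hoxb1, Hoxb13, Hoxc8 and Hoxc11, which were not well above background on some or all arrays.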
